A study of Mus musculus with 9 samples.

Results

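The genes described here are 10 genes used to follow the epithelial-to-mesenchymal transition (EMT) in carcinoma cells. They are the cadherins Cdh1, Cdh2 and Cdh3, the epithelial surface protein gene Epcam, the intermediate filament gene Vim, and the transcription factor genes Zeb1, Zeb2, Snai1, Snai2 and Twist1. They were taken as a list by name from a table of 24421 genes, and all 10 were in it. RNA-seq had been performed on 4T1 cells, an established mouse mammary carcinoma line, in 3 conditions with 3 libraries each. The cells were grown for 5 days either as 3D spheroids in medium with 10% FBS, as 3D spheroids with 75 µM palmitate added to that medium, or as attached 2D monolayers with 75 µM palmitate added. Per the paper's methods, palmitate was given bound to bovine serum albumin. Media without added fatty acid held albumin from the same stock and a matched amount of ethanol. All 9 libraries came from the 1 line 4T1 and no genetic change was made in it. A 2D condition without added palmitate was not analysed here, so culture form could be compared only in the presence of extra palmitate and palmitate only in spheroids. The sample labels do not say whether the 3 libraries of a condition came from separate cultures, and the p-values therefore measure only the spread between these libraries, which may be technical.

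In EMT, cells of an epithelial sheet loosen their junctions and take on a motile, fibroblast-like form. E-cadherin, encoded by Cdh1, joins neighbouring epithelial cells through calcium-dependent contacts whose cytoplasmic side is bound by catenins, and its gene is a classical target of the repressors of the SNAI and ZEB families and of TWIST1, which bind short DNA motifs called E-boxes. N-cadherin (Cdh2) and vimentin (Vim) are typical of mesenchymal cells, whereas P-cadherin (Cdh3) marks basal epithelium and EpCAM (Epcam) marks simple epithelium and many carcinomas. 4T1 cells are known as a metastatic line that nevertheless carries E-cadherin.

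The values are reads counted per gene, given here as CPM (reads on a gene relative to all reads of its library, scaled to a common total) with libraries normalized by the TMM method of edgeR, which assumes that most genes do not differ. Total counts per library lay between 6595514 and 31177756, and both the largest and the smallest of the 3D libraries, 27047217 in replicate 1 and 6595514 in replicate 3, belonged to the condition with palmitate. Markers of simple and basal epithelium summed to 3237 to 4083 CPM over the 9 libraries, with 5 of 6 above a mean of 1 CPM in each condition and Krt5 at 0 or 1 read. Of the markers of other cell types, those of endothelium summed to at most 1.49 CPM. Those of fibroblasts summed to 91.8 to 111.2 CPM in 3D and 33.2 to 34.6 CPM in 2D, nearly all of it Pdgfra, with Col3a1 and Lum at 0 in every library. Leukocyte markers reached 7.16 to 11.4 CPM in 3D and 24.4 to 27.8 CPM in 2D, nearly all of it Cd68, with Adgre1 and Cd3e at 0. In such bulk samples fewer cells of a type and less RNA per cell cannot be told apart.

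The 4T1 cultures held transcripts of both states at once, and bulk RNA cannot tell whether single cells carried both. Per kilobase of exon, which allows levels to be compared between genes, Vim was first in all 3 conditions, with mean levels of 398.8 CPM per kb in 3D without palmitate, 544.0 in 3D with palmitate and 662.8 in 2D. Epcam followed with 375.0, 322.2 and 119.9 CPM per kb in the same order, and Cdh1 with 139.0, 128.2 and 117.6. In 2D the libraries of Epcam and Cdh1 overlapped on this scale, so that these neighbours did not differ beyond their spread there. The transcription factors lay lower, Twist1 at 19.9 to 22.9 CPM per kb, Snai1 at 11.0 to 14.2 and Zeb2 at 1.62 to 2.53. Exons were summed over all annotated transcripts, to 4743 bases for Vim, 2195 for Epcam and 19942 for Zeb2. Levels per length therefore depend on which transcripts the cells use, as does the order of genes with close values, such as Vim and Epcam in 3D without palmitate. Cdh3 with 0.126 to 0.375 and Zeb1 with 0.0661 to 0.0810 CPM per kb were near the limit of detection and overlapped in both 3D conditions, and Snai2 lay at 0.00895 to 0.0915. No read of Cdh2 was counted in any library, and with 3 reads as the detection limit of a condition its level was under 0.0457 to 0.0637 CPM, a limit that covers counting error only.

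**Figure D1:**
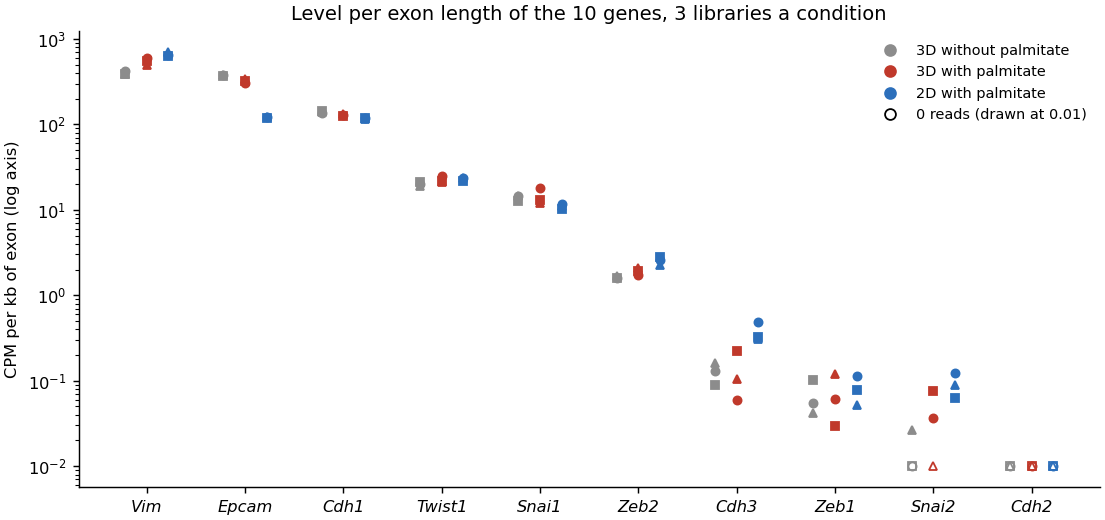
Level of each of the 10 genes in CPM per kilobase of exon on a log axis, with 1 point per library, colored by condition, and open symbols at 0.01 for libraries with 0 reads. Vim, Epcam and Cdh1 lie above 100 CPM per kb in every library, Twist1, Snai1 and Zeb2 between 1 and 30, and Cdh3, Zeb1, Snai2 and Cdh2 below 1.

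The first comparison asks how spheroids and monolayers differ when both receive extra palmitate. Of the 10 genes, 8 had enough reads to be tested, and Snai2 and Cdh2 did not pass the filter. Epcam and Snai1 were higher in 3D, Cdh3, Vim and Zeb2 were lower in 3D, and Cdh1, Twist1 and Zeb1 did not pass an adjusted p-value of 0.05 (edgeR's quasi-likelihood test on all 9 libraries, with Benjamini-Hochberg adjustment over 12575 genes). Many genes differed in this comparison, as 68.3% of all tested genes were called, 34.5% higher and 33.9% lower in 3D. Against this background, 5 called members of 8 is a share close to that of all genes. The 3 libraries of one group lay entirely above those of the other for 6 of the 8 members, where 69.4% of all genes did so. The median log2 fold change of the 8 members was -0.14, and that of all genes was 0.01.

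**Figure D2:**
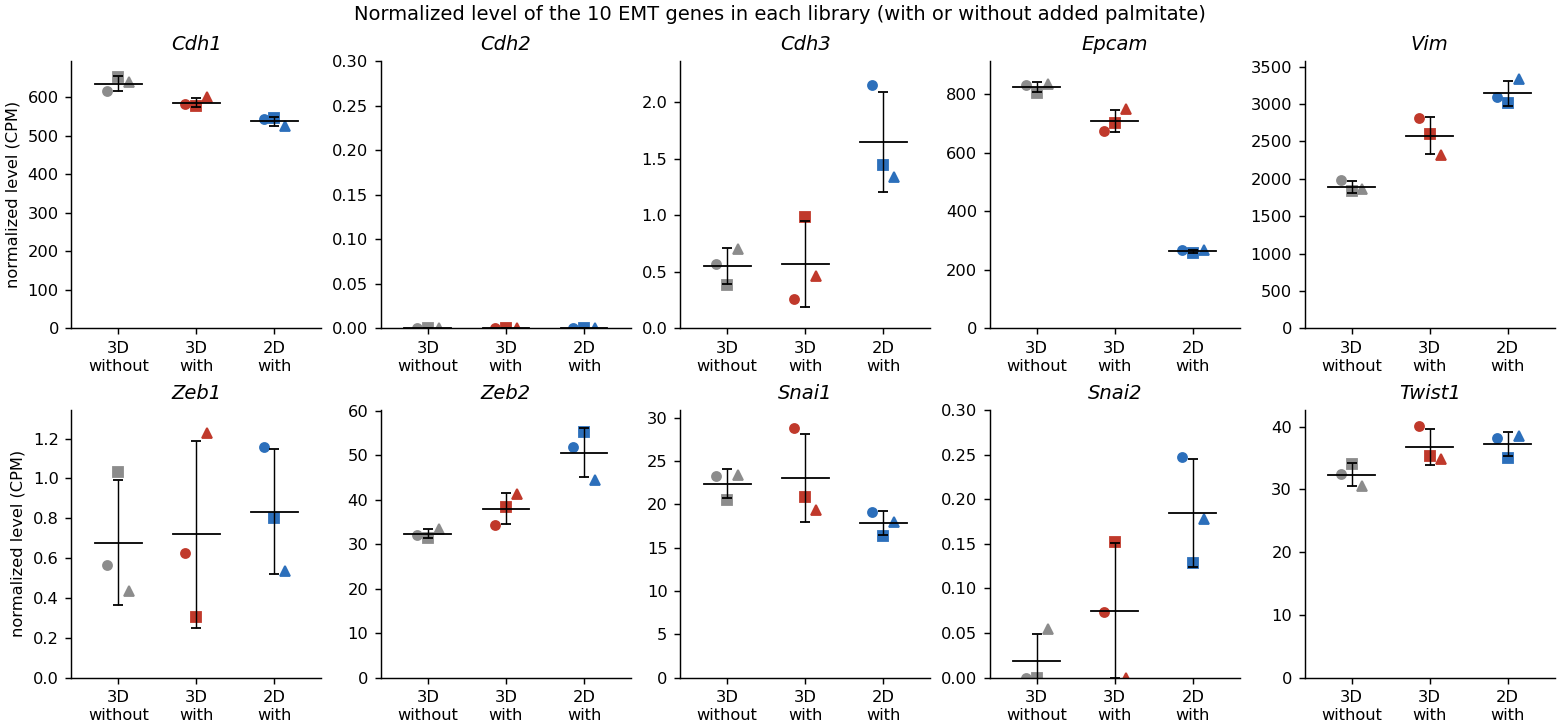
Normalized level in CPM of each of the 10 genes in the 9 libraries, in panels with their own axes that start at 0. Circles, squares and triangles are replicates 1, 2 and 3, horizontal lines are means and bars the SD of 3 libraries (cut at 0). Epcam lies at 256.8 to 266.4 CPM in 2D, below all 3D libraries, and Vim lies at 1833.9 to 1980.5 CPM in 3D without palmitate, 2318.1 to 2820.4 CPM in 3D with palmitate and 3008.8 to 3329.2 CPM in 2D.

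Epcam encodes a cell surface glycoprotein of epithelial cells that takes part in adhesion and signaling. The gene lies on chromosome 17 from 87635979 to 87651129 on the plus strand of GRCm38. Its level was 671.8, 701.2 and 748.6 CPM in the 3 spheroid libraries with palmitate and 266.4, 256.8 and 266.2 CPM in the 3 monolayer libraries. All 3D libraries were thus far above all 2D libraries, and each monolayer value was below those of the spheroids without palmitate too (831.0, 804.4 and 833.8 CPM). The fold change was 2.69 (log2 fold change 1.43, SE 0.0597, edgeR adjusted p = 5.81e-11), which placed Epcam at rank 131 of 12575 genes by p.

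The 250 bases before the RefSeq start of Epcam are shown beside those of Vim, because these are the members with the smallest p between culture forms and with palmitate, and because the SNAI and ZEB factors bind E-boxes of the form CAGGTG. Read on the opposite strand such a box is spelled CACCTG. Capitals mark the matches to either spelling. The windows are chr17:87635729-87635978 for Epcam and chr2:13574061-13574310 for Vim, both on the plus strand of GRCm38.p6. The GENCODE span of Vim given below starts at 13573927, before its RefSeq start. The Vim window therefore lies inside that span, whereas the Epcam window lies outside the span of Epcam.
Epcam: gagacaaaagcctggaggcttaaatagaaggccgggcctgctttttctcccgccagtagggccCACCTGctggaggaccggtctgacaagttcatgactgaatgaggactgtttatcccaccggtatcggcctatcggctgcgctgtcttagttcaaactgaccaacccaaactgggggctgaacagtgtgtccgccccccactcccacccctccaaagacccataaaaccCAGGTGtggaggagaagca
Vim: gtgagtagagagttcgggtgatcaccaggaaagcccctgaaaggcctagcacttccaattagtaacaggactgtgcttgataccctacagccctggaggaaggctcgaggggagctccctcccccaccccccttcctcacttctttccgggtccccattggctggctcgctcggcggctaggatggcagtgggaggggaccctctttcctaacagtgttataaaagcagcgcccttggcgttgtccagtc

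The Epcam window holds 2 such motifs, whose first bases are at positions -187 and -19 relative to the start, and the Vim window holds 0. Of the other members whose windows were used, Snai1 had 1 motif at position -126, while the 4 windows of Zeb2 and the window of Twist1 had 0. Windows of Cdh2 and Zeb1 were left out, and none was available for Cdh1, Cdh3 and Snai2. Whether Cdh1 holds such a motif was therefore not examined. Among all 32851 windows of the same length, 17.2% held at least 1 such motif and 2.06% at least 2. A match is a description of the letters and no evidence of binding in these cells.

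Cdh1, which encodes E-cadherin, differed little. On chromosome 8 from 106603351 to 106670246 (plus strand, GRCm38), it had 581.4, 576.7 and 600.9 CPM in 3D with palmitate and 544.2, 545.3 and 524.8 CPM in 2D. The 3D libraries were all above the 2D libraries, yet the log2 fold change was 0.12 with a 95% interval of 0.01 to 0.24 and did not pass the adjusted threshold (edgeR adjusted p = 0.0589). Its direction depended on the processing. The log2 fold change was -0.08 once the dependence of counts on GC content and transcript length had been taken out of each library. In that setting the median over all tested genes was -0.08 as well, against 0.01 in the main test. DESeq2 called Cdh1 higher in 3D (log2 fold change 0.12, adjusted p = 0.0403), and so did edgeR when genes needed at least 10 counts in every library. An increase of the size seen for Epcam is outside its interval. Epcam was counted 1.16, 1.22 and 1.25 times for each read on Cdh1 in the 3 spheroid libraries with palmitate and 0.490, 0.471 and 0.507 times in the monolayers.

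Cdh3 encodes P-cadherin and is the direct neighbor of Cdh1, on chromosome 8 from 106510891 to 106557297 (plus strand, GRCm38). Only 7, 13 and 3 reads were counted on it in 3D with palmitate, against 26, 45 and 30 reads in 2D. After scaling, all monolayer libraries, at 1.34 to 2.15 CPM, exceeded all spheroid libraries, at 0.258 to 0.988 CPM. The level was 3.08-fold lower in 3D (log2 fold change -1.62, SE 0.401, edgeR adjusted p = 0.00229). This call was lost without 3D with palmitate replicate 1 (log2 fold change -0.95, adjusted p = 0.0505). Over exons of similar length, 4574 and 4384 bases, Cdh1 took 2257, 584.0 and 1308 reads per read on Cdh3 in the spheroids with palmitate, a wide spread that rests on the few Cdh3 reads, and 253.1, 378.3 and 392.6 in the monolayers.

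Vim encodes vimentin, the intermediate filament protein of mesenchymal cells, and lies on chromosome 2 from 13573927 to 13582826 (plus strand, GRCm38). Spheroids with palmitate had 2820.4, 2602.0 and 2318.1 CPM and monolayers 3093.5, 3008.8 and 3329.2 CPM, without overlap. The level in 3D was 1.22-fold lower (log2 fold change -0.28, SE 0.0725, edgeR adjusted p = 0.00288), a small difference next to that of Epcam.

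Among the repressors, Zeb2 and Snai1 moved in opposite directions. ZEB2 is a zinc finger and homeodomain repressor of epithelial genes (chromosome 2 from 44983632 to 45117395, minus strand, GRCm38), and its gene had 34.4, 38.4 and 41.2 CPM in 3D with palmitate and 51.8, 55.3 and 44.5 CPM in 2D. It was 1.35-fold lower in 3D, without overlap (log2 fold change -0.43, SE 0.0900, edgeR adjusted p = 6.34e-04). After that correction for GC content and length, its log2 fold change was -0.82. The antisense gene Zeb2os covers 3.27% of the exon bases of Zeb2 and had 5 to 54 reads per library. Zeb2os was lower in 3D too (log2 fold change -0.65, edgeR adjusted p = 0.0310), but the call was lost with DESeq2 (adjusted p = 0.0972). It was also lost after the correction for GC content and length, and with the share of reads on Rn45s, a ribosomal RNA precursor, as a covariate. The same held without any of 4 single libraries, replicates 2 and 3 of the spheroids with palmitate and replicates 1 and 2 of the monolayers (edgeR adjusted p up to 0.114). The strand setting of the counting is not given in the sources used here, and reads of the pair may have been mixed where they overlap.

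SNAI1 is the zinc finger repressor Snail, whose gene spans 167538195 to 167542814 on chromosome 2 (plus strand, GRCm38). Snai1 had 28.8, 20.9 and 19.4 CPM in 3D with palmitate and 19.1, 16.4 and 18.0 CPM in 2D. Replicate 1 stood well above the other 2 spheroid libraries, and the lowest spheroid library was just above the highest monolayer library. The level was 1.35-fold higher in 3D (log2 fold change 0.43, SE 0.127, edgeR adjusted p = 0.00760), but without 3D with palmitate replicate 1 the log2 fold change was 0.20 and the call was lost (adjusted p = 0.108).

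Twist1 encodes a basic helix-loop-helix factor and lies on chromosome 12 from 33957671 to 33959829 (plus strand, GRCm38). It had 40.1, 35.3 and 34.8 CPM in 3D with palmitate and 38.2, 35.0 and 38.5 CPM in 2D, with overlapping groups. The log2 fold change was -0.00 with a 95% interval of -0.17 to 0.17 (edgeR adjusted p = 0.993). Zeb1, the paralog of Zeb2, was counted with 17, 4 and 8 reads in 3D with palmitate and 14, 25 and 12 in 2D, and its interval was wide, from -1.27 to 0.62 (edgeR adjusted p = 0.531). For Snai2, which encodes the repressor Slug (chromosome 16 from 14705852 to 14709385, plus strand, GRCm38), 2, 2 and 0 reads were counted in 3D with palmitate and 3, 4 and 4 in 2D. At this depth no difference could be tested for Snai2, and for Zeb1 only a large one would have been seen.

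The second comparison asks what added palmitate changes in spheroids. Vim was the 1 member called: it rose 1.36-fold with palmitate. Of all tested genes 2.19% were called, 1.38% higher and 0.811% lower, against 1 of the 8 members. The split between higher and lower genes, 173 and 102, depended on the scaling and was 106 and 121 when libraries were scaled by their totals alone. The groups did not overlap for 5 of the 8 members, Cdh1, Epcam, Vim, Zeb2 and Twist1, and for 18.6% of all genes. The median log2 fold change was 0.01 over the 8 members and 0.01 over all genes. The spheroids with palmitate were used in both comparisons, so the results of the comparisons are not independent of each other.

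**Figure D3:**
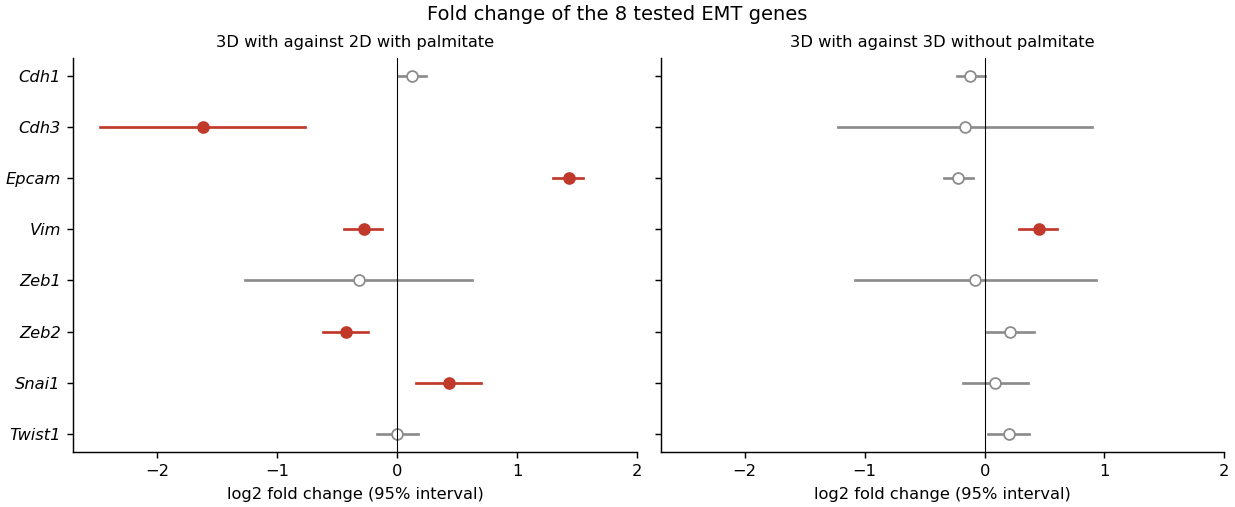
Log2 fold change of the 8 tested members with its 95% interval, 3D with palmitate against 2D with palmitate on the left and against 3D without palmitate on the right. Filled red points passed an adjusted p of 0.05. Epcam at 1.43 and Cdh3 at -1.62 lie farthest from 0 on the left, and Vim at 0.45 is the filled point on the right.

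Vim was counted at 1980.5, 1833.9 and 1860.7 CPM in spheroids without palmitate and at 2820.4, 2602.0 and 2318.1 CPM with it. Every library with palmitate was above every library without it, and the spread was wider with palmitate (SD 251.9 CPM against 78.1 CPM, n = 3 each). The log2 fold change was 0.45 (SE 0.0726, 95% interval 0.29 to 0.60, edgeR adjusted p = 0.00599), rank 46 of 12575 genes by p. The call held when any one library was left out, with log2 fold changes from 0.38 to 0.52 and adjusted p-values up to 0.0498. It was lost when the share of reads on Rn45s, a ribosomal RNA precursor that took 1.77% to 5.38% of a library, entered the model as a covariate (log2 fold change 0.42, adjusted p = 0.0640).

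Epcam had 831.0, 804.4 and 833.8 CPM without palmitate and 671.8, 701.2 and 748.6 CPM with it. All libraries with palmitate were below those without. The log2 fold change was -0.22 (SE 0.0583, 95% interval -0.34 to -0.10), and it did not pass the threshold (edgeR adjusted p = 0.0664), although DESeq2 called it (adjusted p = 0.00698). Epcam was also called by edgeR with scaling by library size only, without a filter on low counts, and after correction for GC content and length. Without 3D with palmitate replicate 3, the library with the fewest reads, the same test called it as well (log2 fold change -0.26, adjusted p = 0.00367). Over all alternatives the adjusted p of Epcam ranged from 0.00367 to 0.307.

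The remaining members did not pass the test with palmitate. Cdh1 had 615.4, 652.4 and 639.2 CPM without and 581.4, 576.7 and 600.9 CPM with palmitate, a log2 fold change of -0.12 with an interval of -0.23 to 0.00 (edgeR adjusted p = 0.293). Zeb2 had 32.0, 31.5 and 33.5 CPM without and 34.4, 38.4 and 41.2 CPM with palmitate (log2 fold change 0.21, edgeR adjusted p = 0.252). Zeb2 was called after the correction for GC content and length (log2 fold change 0.33, adjusted p = 0.00325). Twist1 had 32.4, 34.1 and 30.5 CPM without and 40.1, 35.3 and 34.8 CPM with palmitate, and its log2 fold change of 0.20 had an interval of 0.03 to 0.37 (edgeR adjusted p = 0.212). For Snai1, with 23.3, 20.5 and 23.4 CPM without palmitate, the groups overlapped and the log2 fold change was 0.09 (edgeR adjusted p = 0.777). Cdh3 had 12, 6 and 13 reads without palmitate and 7, 13 and 3 with it, and Zeb1 12, 16 and 8 reads without and 17, 4 and 8 with it, and neither was called (edgeR adjusted p = 0.909 and 0.961). The counts of Snai2, 0, 0 and 1 without and 2, 2 and 0 with palmitate, were too low to test.

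The balance of an epithelial and a mesenchymal transcript can be read within each library as a ratio of counts, which needs no scaling between libraries and is not corrected for gene length. These ratios were chosen after the values were seen and are given without a test. For each read on Vim, 0.420, 0.439 and 0.448 reads fell on Epcam in spheroids without palmitate. The ratio was 0.238, 0.270 and 0.323 in spheroids with palmitate and 0.0861, 0.0853 and 0.0800 in monolayers. The 3 conditions did not overlap, and the means descended from 0.436 over 0.277 to 0.0838. Cdh1 gave the same order, with means of 0.337, 0.229 and 0.172 reads per read on Vim and no overlap between conditions. Both ratios divide by Vim, so they are not independent of each other, and the order depends on that choice. Fn1, the mesenchymal gene of fibronectin, ran the other way from Vim, with means of 5951.9, 4790.4 and 1889.0 CPM in the same conditions. Of 21 tested mesenchymal effectors, 8 were higher in 3D than in 2D, Fn1 among them, and 9 were lower. Within the spheroids with palmitate, the library with the most Vim (replicate 1) had the least Epcam and the library with the least Vim (replicate 3) had the most Epcam. The total counts of these libraries fell from replicate 1 over replicate 2 to replicate 3 in the same order, and the part of depth in this pattern was not tested.

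**Figure D4:**
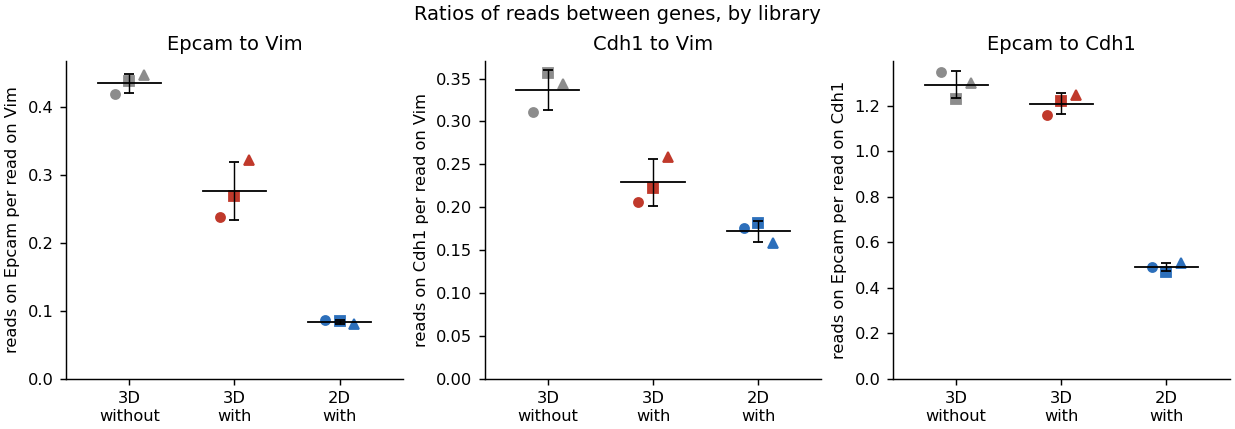
Reads on Epcam and on Cdh1 per read on Vim, and reads on Epcam per read on Cdh1, in each library, with means and SD of 3 libraries. Epcam to Vim lies at 0.420 to 0.448 in 3D without palmitate, 0.238 to 0.323 in 3D with palmitate and 0.0800 to 0.0861 in 2D, whereas Epcam to Cdh1 separates only the monolayers from both kinds of spheroid.

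Genes that work with the members were followed in lists drawn up by role, with earlier results of these data known. The shares called in these lists are therefore a description and no independent evidence. In each list the genes with the smallest p are named first, and others are named after their values were seen, where few members of a list moved one way. Between spheroids and monolayers, 16 of the 24 tested regulators and markers of epithelial identity were higher in 3D, 2 were lower and 6 were not called, with a median log2 fold change of 0.71 against 0.01 for all genes. The share called was 75.0% against 68.3% of all genes, and 66.7% were higher against 34.5%. Prom2, which encodes a protein of epithelial membrane protrusions, was 7.28-fold higher (log2 fold change 2.86, SE 0.0847, edgeR adjusted p = 1.91e-12). Spint1, an inhibitor of epithelial serine proteases, was 3.52-fold higher, and Ovol1, an epithelial zinc finger factor, 3.19-fold higher. The 2 that were lower were Esrp2, which directs epithelial splicing, and Elf3, an epithelial ETS factor, both at a log2 fold change of -0.43.

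Of the genes of the cadherin adhesion complex, 16 of 20 were tested, 10 were higher in 3D, 4 were lower and 2 were not called (median log2 fold change 0.50). This is 87.5% called and 62.5% higher, where 68.3% of all genes were called and 34.5% were higher. Ctnnb1, encoding β-catenin, which binds the cytoplasmic tail of E-cadherin, was 1.92-fold higher with 1813.5 ± 77.1 CPM in 3D and 946.7 ± 23.9 CPM in 2D (SD, n = 3, log2 fold change 0.94, edgeR adjusted p = 3.28e-09). Jup, encoding its homolog plakoglobin, was 2.39-fold higher, and Adam10, encoding a protease that sheds E-cadherin, 2.16-fold higher. The 4 lower genes were Pkp4, Arvcf, Mllt4 (afadin) and Pvrl3 (nectin 3), with log2 fold changes of -0.72, -0.23, -0.50 and -0.29. Arvcf was not called without 2D with palmitate replicate 1 (adjusted p = 0.0831).

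Only 4 of the other 19 cadherins were tested, and 6 had no read in any library. Cdh17, known as liver-intestine cadherin, was 5.48-fold higher in 3D, with 6.76 ± 0.116 CPM against 1.29 ± 0.555 CPM (SD, n = 3, log2 fold change 2.45, edgeR adjusted p = 6.60e-07). Cdh10, a classical cadherin known from the nervous system, had 0 reads in all 3 spheroid libraries with palmitate, 1 read in those without, and 10 to 36 reads in each monolayer library. Taking 3 reads over the spheroids with palmitate as the floor, Cdh10 was at least 15.1-fold lower there (edgeR adjusted p = 2.46e-05).

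Among 22 tested genes of other EMT transcription factors and their cofactors, 12 were higher in 3D, 3 were lower and 7 were not called (median log2 fold change 0.22). The share called, 68.2%, was that of all genes (68.3%), with 54.5% higher and 13.6% lower against 34.5% and 33.9% of all genes. Id2, an inhibitor of basic helix-loop-helix factors, was 3.84-fold higher, Smad3, a mediator of TGF-β signaling, 3.62-fold higher, and Hmga2, an architectural chromatin protein, 3.27-fold higher (edgeR adjusted p = 9.00e-12, 1.11e-11 and 1.40e-10). The lower genes included Snai3 and Ets1, at log2 fold changes of -1.65 and -0.68. The mesenchymal effectors went both ways, with 8 of 21 tested genes higher, 9 lower and 4 not called (median -0.00), or 38.1% higher and 42.9% lower against 34.5% and 33.9% of all genes. Postn, encoding periostin, was 29.6-fold lower in 3D with 0.825 ± 0.596 CPM against 29.1 ± 1.37 CPM, and Sparc, another matricellular protein gene, was 4.06-fold lower. In contrast, Cd44, the gene of the hyaluronan receptor, was 3.01-fold higher.

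Of the corepressors and turnover factors of SNAI and ZEB proteins, 4 of 24 tested genes were higher in 3D, 13 were lower and 7 were not called (median -0.19). The share called was 70.8%, close to the 68.3% of all genes, and 54.2% were lower against 33.9% of all genes. Ajuba, a LIM protein and SNAI1 corepressor, was 3.73-fold lower, with 52.3 ± 3.45 CPM in 3D and 196.2 ± 4.37 CPM in 2D (SD, n = 3, log2 fold change -1.90, edgeR adjusted p = 9.81e-12). The kinase genes Pak1 and Lats2, whose products phosphorylate SNAI1, were 1.69-fold and 1.61-fold lower. The 4 higher genes were Rcor1, Gsk3b, Sin3a and Btrc, at log2 fold changes of 0.74, 0.59, 0.36 and 0.27, and the products of Gsk3b and Btrc take part in the degradation of SNAI1. After the correction for GC content and length, Sin3a and Btrc were not called (log2 fold changes of 0.08 and 0.11). Among the intermediate filament genes and their linkers, 5 of 11 were higher, 4 were lower and 2 were not called (median 0.08), where 34.5% of all genes were higher and 33.9% lower. Krt8, a keratin of simple epithelium, was 1.51-fold higher in 3D, and Plec, encoding the linker plectin, 1.79-fold higher. Krt18, Krt19 and Lmna were the other higher genes. The B-type lamin gene Lmnb1 was 1.39-fold lower, and Lmnb2, Nes and Krt7 were lower too, at log2 fold changes of -0.43, -0.39 and -0.51. The loci of the miR-200 family and miR-205, which restrain ZEB factors, could not be assessed, as the 6 loci in the table had 0 or 1 read in any library of this poly(A) data.

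With palmitate in spheroids, 4 of 122 tested genes of these lists were called, or 3.28% against 2.19% of all genes. All 4 fell, where 0.811% of all genes were called lower, but the lists were drawn up with earlier results of these data known. The direction of these 4 genes is thus a description and no independent evidence. With libraries scaled by their totals alone the split of all called genes was 106 higher and 121 lower rather than 173 and 102. They were 3 of 24 tested epithelial identity genes (median log2 fold change -0.11), Prom2 and Esrp1 among them, and 1 of 21 mesenchymal effectors, Fn1 (median -0.02). Prom2 fell 1.54-fold, from 181.3 ± 5.01 to 117.1 ± 12.7 CPM (SD, n = 3, log2 fold change -0.62, SE 0.0736, edgeR adjusted p = 8.23e-04). Esrp1 fell 1.33-fold, from 101.8 ± 5.34 to 76.1 ± 4.51 CPM (log2 fold change -0.41, edgeR adjusted p = 0.00705), a call lost without 3D without palmitate replicate 2 (adjusted p = 0.0521).

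Fn1, encoding fibronectin, fell 1.24-fold from 5951.9 ± 179.7 to 4790.4 ± 303.7 CPM (edgeR adjusted p = 0.0337). The call of Fn1 was lost in 9 of 18 alternatives, including the removal of any 1 library without palmitate and of replicate 1 or 2 of the spheroids with palmitate (adjusted p up to 0.142 with 1 library left out). Fn1 thus went down where Vim went up, and both are classed as mesenchymal genes. In the other 5 lists, with 77 genes tested, edgeR called 0 with palmitate, while 10 had an unadjusted p under 0.05 and DESeq2 called 2, Id2 and Krt19. Of the epithelial markers, the basal keratin Krt14 fell with palmitate (log2 fold change -0.52, edgeR adjusted p = 0.00517), and the other 4 tested were not called.

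**Figure D5:**
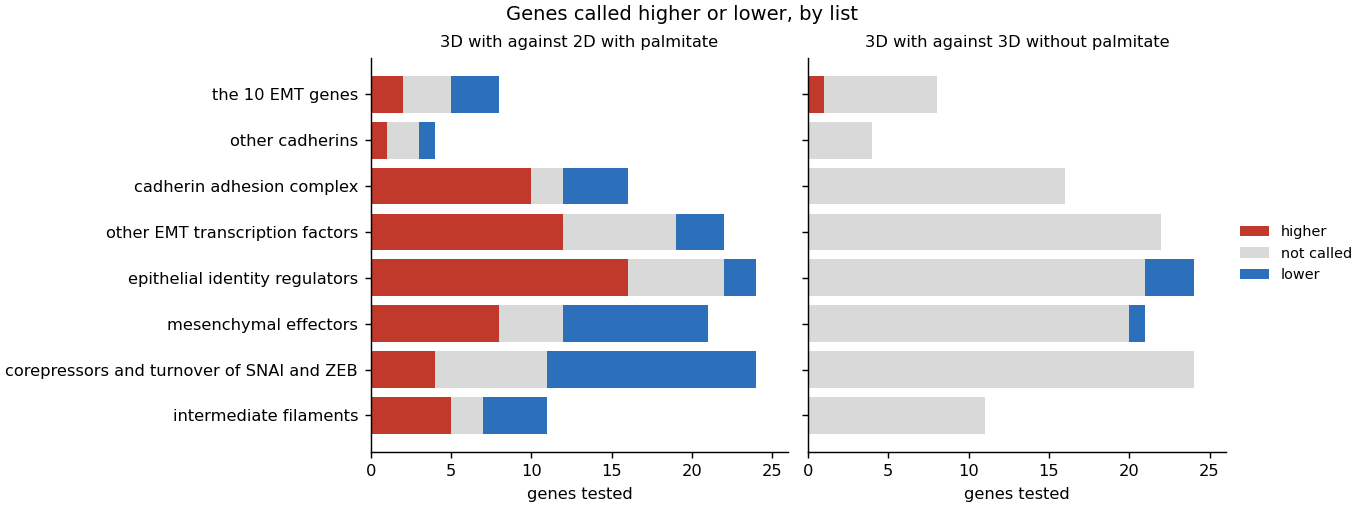
Number of tested genes in each list called higher (red), not called (gray) or called lower (blue) at an adjusted p of 0.05, for 3D with palmitate against 2D with palmitate (left) and against 3D without palmitate (right). In the left panel 16 of 24 epithelial identity genes are higher and 13 of 24 corepressor and turnover genes lower, and in the right panel 1 member is higher and 4 genes of the other lists are lower.

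The genes whose pattern over the 9 libraries was most like that of each member are given as a description. The measure was Pearson's r of log2 CPM among 11686 genes with a mean of at least 1 CPM, and because the libraries fall into 3 conditions, r mostly reflects the condition means. Arhgap26, Camk1d and Fxyd3 followed Epcam, each at 0.999. Closest to Vim were Map2k1 at 0.984, and Etfb and D5Ertd605e at 0.982, and closest to Zeb2 were Ero1l at 0.987, Dennd4a at 0.982 and Cnksr3 at 0.981. Cdh1 was followed by Marf1 at 0.980, Ctps2 at 0.974 and Srcap at 0.971. The nearest genes to Snai1 were Trim47 at 0.963, Tmub1 at 0.960 and Gins2 at 0.959, and those to Twist1 were Dusp1 at 0.956, Taf1c at 0.930 and Gde1 at 0.918.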

How the data were processed

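RNA of 4T1 cells was measured in 9 libraries of 3 conditions, which were assigned from the sample labels. Whole-number read counts were deposited by the authors for each gene, with no normalization. Per the labels and the paper's methods, libraries were made with a stranded poly(A) kit, single-end reads of 50 bp were cleaned, checked with FastQC 0.11.9, aligned to GRCm38 with HISAT2 2.1.0 and counted with HTSeq. The annotation release and strand setting of the counting are not given in the sources used here, so reads of overlapping genes could have been split or lost. All columns belong to a library and every entry names a gene.

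The tests used edgeR 4.0.16 under R 4.3.3. filterByExpr selected the genes, TMM gave the scaling, and all 9 libraries entered one quasi-likelihood model of condition alone. Genes with a Benjamini-Hochberg adjusted p under 0.05 were called. The SE was obtained from the log2 fold change and its F statistic. CPM values use TMM-scaled totals. Exon lengths came from GENCODE M21 (GRCm38) and promoter sequences from RefSeq (GRCm38.p6). A reference gene was matched for 98.5% of the genes.

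The members and lists were chosen with earlier results of these data known. All members are named. From each further list up to 3 genes with the smallest p among those called in each comparison are named, and for each member with a mean of at least 1 CPM the 3 genes with the highest Pearson r. Some genes that this rule or a list would name are not reported here. Genes of the marker lists are given as counts and ranges. Libraries had 6595514 to 31177756 reads, and the chi-square value per gene between replicates lay between 3.89 and 19.7, above sampling noise. As alternatives, RLE or library-size scaling replaced TMM, genes were left unfiltered or needed 10 counts in all libraries, and only the groups under comparison were fitted. Further ones were a block for replicate number, DESeq2 1.42.0, the Rn45s share as a covariate, offsets that took out the dependence on GC content and length (natural splines, 4 degrees of freedom), and leaving out single libraries. The procedure was tested on simulated data.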

Additional observations from a re-analysis of the deposited data

How the results depend on the processing

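The number of genes called with palmitate depended most on the processing. Against 275 genes, 617 were called without a filter on low counts (325 higher and 292 lower), 77 with only the compared groups fitted, 44 with the Rn45s share as a covariate and 924 after correction for GC content and length. Leaving out 1 library gave 71 to 1901 genes, the most without 3D with palmitate replicate 3, the library with the fewest reads. Of the members, 2 were called with palmitate when scaled by library size only, without a filter or with DESeq2, 3 after correction for GC content and length, 0 with the Rn45s share as a covariate in edgeR (where 4 had an unadjusted p under 0.05), and 1 to 2 with 1 library left out. Between 3D and 2D, 7977 to 8866 genes and 3 to 5 members were called with 1 library left out, the fewest members without 3D with palmitate replicate 1. The split of that comparison was 4335 genes higher and 4259 lower in the main test. It was 3819 and 5184 after correction for GC content and length. No pairing by replicate number was seen. Deviations of same-numbered libraries correlated at -0.24 to 0.15 (median -0.05, 9 pairs) and those of other pairs at -0.17 to 0.28 (median 0.03, 18 pairs). With 3 libraries a condition these values cannot exclude a pairing. With the replicate number as a block, 111 genes were called with palmitate and 8323 between 3D and 2D, and the members called stayed at 1 and 5. No called fold change of a member or of the other genes named with a test result changed sign in the alternatives run, and the reasons for the differing counts were not tested. The lowest total, 6595514 reads, limits what could be seen for Cdh3, Zeb1, Snai2 and Cdh2.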
